A study of Mus musculus with 2 samples.

Results

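Prostaglandins and leukotrienes are lipid mediators made from arachidonic acid, which phospholipases release from membranes. The cyclooxygenases Ptgs1 and Ptgs2 start the prostaglandin branch, terminal synthases such as Ptges and Hpgds make the single prostaglandins, and Hpgd inactivates them. The lipoxygenase Alox5, its membrane partner Alox5ap and the synthase Ltc4s make leukotrienes. In macrophages Ptgs2 is known as an inducible gene of inflammation, whereas Ptgs1 is the constitutive isoform, and prostaglandin E2 acts back on these cells through receptors that include Ptger2 and Ptger4. The data set here is these 10 genes of the prostaglandin and leukotriene pathways, of 20642 genes that could be named on the array. They were chosen by name and read from all probes assigned to their transcripts. This gave 12 probes, with 1 probe for 8 genes and more for Ptges and Hpgd.

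The genes were read in red pulp macrophages from mouse spleens, the phagocytes that clear aged red cells, in a wild-type (WT) pool and a pool labelled SIRPα-KO, for knockout of an inhibitory myeloid receptor that binds CD47. Spleens of both genotypes were digested with collagenase and DNase, red cells were lysed, and cells with the surface antigen encoded by Adgre1 and little CD11b were sorted. Each pool holds cells of 5 mice, was depleted of globin transcripts and was read on 1 array, so no value has a replicate across animals. The labels used here name no treatment, strain, age or sex of the mice, nor the deleted part of the gene.

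Signals are brightness values of 1-colour Agilent arrays, and log2 values are scaled to the 75th percentile of each array, a signal of 100.1 for WT and 89.0 for the other. A difference is a log2 value of the pool labelled SIRPα-KO less that of WT. Its ± is the scanner software's signal error, which covers the spots and neither mice nor pools. With 1 array a genotype no test was possible, and a difference of at least 2-fold (1 on the log2 scale) was used as a rule of size. The targeted gene Sirpa had signals of 795 (WT) and 1006, a difference of 0.51 ± 0.20, so it did not bear out the label SIRPα-KO; whether its probe lies inside the deleted part is not known here, and a probe outside it checks nothing. Every direction below rests on the labels. Of 18 red pulp macrophage markers, 14 were measured, among them Adgre1, the sorting antigen (6830 in WT and 10406), Csf1r (6601 and 6697) and Spic (53.6 and 53.6); Mertk, Mrc1 and Itgad were not well above background on either array.

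Of the 10 genes, 7 were measured, meaning that the software called the brightest probe well above background in 1 pool or both. The 3 others, Hpgds, Ptger2 and Ptger4, were not well above background on either array. In the pool labelled SIRPα-KO, Ptgs1 was higher by 2-fold or more, and Ptgs2 and Hpgd were lower by 2-fold or more. The Ptgs2 call rests on a bound described below. The bright Ptges signal and the leukotriene genes Alox5, Alox5ap and Ltc4s differed by less than 2-fold. The background over all 15827 measured genes was 3.12% higher and 5.41% lower by this rule. With a limit of 1.5-fold the members lower were 3, with Alox5 added, and 1 was higher, beside 13.1% and 11.4% of all measured genes. Restricted to the 14154 genes detected in both pools, 5.52% were lower and 2.98% higher by 2-fold, and of the 6 members detected in both, Hpgd was lower and Ptgs1 higher. The median difference of the 7 measured genes was -0.33, beside -0.08 for all measured genes. The median of 7 chosen genes says nothing of a pathway as a whole.

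**Figure D1:**
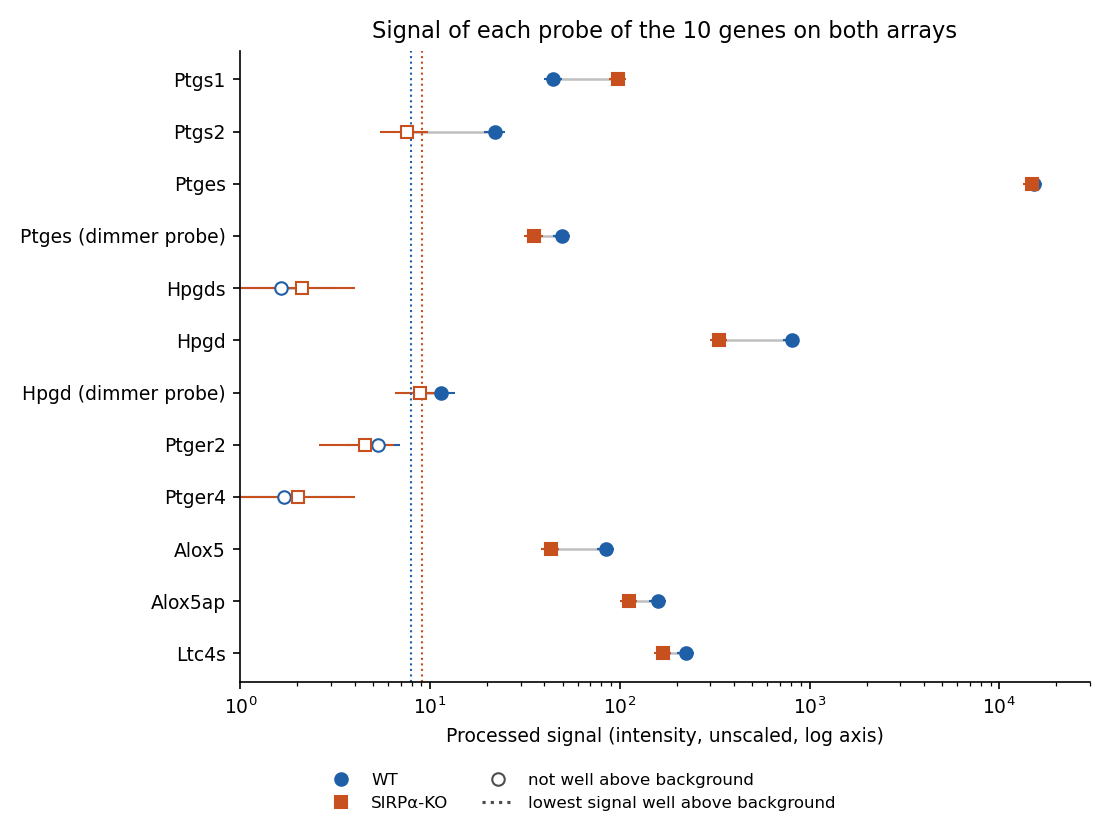
Processed signal (unscaled intensity, log axis) of each of the 12 probes on the WT array (circles) and the array labelled SIRPα-KO (squares), with the software's signal error as bars; an open symbol is not well above background, dotted lines mark the lowest signal well above background on each array, and bars of Hpgds and Ptger4 run past the left edge. Ptgs1 is the only gene of these whose filled symbol lies further right in the pool labelled SIRPα-KO, and Hpgds, Ptger2 and Ptger4 lie left of both dotted lines.

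The cyclooxygenases went in opposite directions. Ptgs1 had a signal of 44.7 ± 4.79 in WT and 97.6 ± 9.96 in the pool labelled SIRPα-KO, from 1 spot each. The difference was 1.30 ± 0.21, or 2.46-fold higher. The median pixel brightness of the same spots, less the local background, was 64.0 and 115, higher in the same pool. Of the 1000 genes with the most similar mean signal that were well above background on both arrays, 1.4% differed at least as far in the same direction, beside 1.32% of all 14154 such genes. Ptgs1 is also a gene of platelets. All 14 platelet and megakaryocyte markers were measured, with a summed unscaled signal of 15119 in WT and 14505 in the other pool, and their median difference was -0.22. Of these markers only the platelet receptor gene Gp1ba was at least 2-fold higher (1.45 ± 0.24), with signals of 24.6 and 59.5, and Pf4, the brightest of them, differed by 0.20 ± 0.20. Of the red pulp macrophage markers, 3 of the 14 measured were also higher by 2-fold or more, and 0 were lower. All measured genes gave 3.12% higher and 5.41% lower. The 3 were C1qc (1.11 ± 0.20), Fcgr1 (1.23 ± 0.20) and Cd5l (1.46 ± 0.22). Of the 14, 7 lay above 0 and 6 below, the latter with C1qa (-0.64 or further below 0), Cd163 (-0.56 ± 0.24) and C1qb (-0.34 ± 0.21). The summed signal of the 14 was 15119 in WT and 19033 in the other pool, with a median difference of 0.06. Most of that rise came from Adgre1, the sorting antigen (6830 and 10406). The part of platelet or macrophage transcripts in the Ptgs1 difference was not tested.

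Ptgs2 was low on both arrays and was read from several spots of 1 probe. On the WT array the 9 spots used ranged from 19.3 to 26.3, with a median of 22.4, and all were well above background. A spot at 17.8 was flagged as an outlier and left out. On the array labelled SIRPα-KO the 10 spots ranged from 6.07 to 10.1, with a median of 7.18, and 0 of them were well above background. The spots of the arrays did not overlap, also with the flagged spot. Their SD on the log2 scale was 0.15 and 0.25, which describes 1 hybridisation each and not the mice. Set at the lowest signal well above background there, 9.09, Ptgs2 was 2.15-fold lower in the pool labelled SIRPα-KO (log2 difference -1.11). This bound is not a strict floor, because a Ptgs2 spot at 10.1 was not well above background on that array. The value rests on signals within a few times 9.09. With the median pixel brightness less local background, 39.7 and 24.5 over the same spots, the scaled log2 difference was -0.54.

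**Figure D2:**
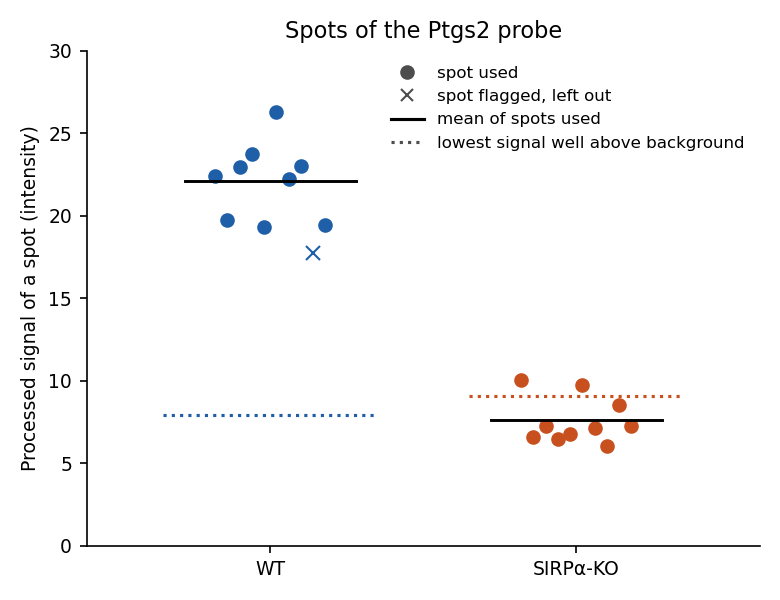
Processed signal (intensity, linear axis from 0) of each spot of the Ptgs2 probe on the WT array (9 spots used, 1 flagged) and the array labelled SIRPα-KO (10 spots); black lines are means over the spots used and dotted lines the lowest signal well above background on each array. The spots used lie between 19.3 and 26.3 in WT and between 6.07 and 10.1 in the other pool; spots of 1 array are technical repeats of 1 pool.

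A comparison of genes within the same arrays does not change when an array is scaled by a single factor. With Ptgs2 at its bound, the difference of Ptgs1 exceeded that of Ptgs2 by 2.40 on the log2 scale. The excess was 0.92 to 2.68 under the 6 other ways of processing that moved it. The balance of signal between both cyclooxygenase probes thus moved toward Ptgs1 in the pool labelled SIRPα-KO under each of these. This shows unequal change and not which of the genes changed in absolute amount.

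The sequences before the transcription starts of the 3 genes that were at least 2-fold apart are shown because Ptgs1 and Ptgs2 carry unlike upstream regions. They are the 250 bases upstream of the start in RefSeq (build GRCm38.p6), 5′ to 3′ on the strand of the gene, in lower case with searched motifs in capitals. The array files name the mm9 build, and the windows were found by gene symbol. Matches to 6 motifs on both strands were sought. The TATA box was searched as TATAAA. The core of the cyclic AMP response element was searched as TGACG. The motif bound by C/EBP factors was searched as TTNNGNAA. For NF-κB the core of its motif was used, a run of 3 guanines and a pair of cytosines with 5 free positions between them. The Sp1 motif was searched as GGGCGG. The E box was searched as CACGTG.
Ptgs1, chr2:36230176-36230425, plus strand: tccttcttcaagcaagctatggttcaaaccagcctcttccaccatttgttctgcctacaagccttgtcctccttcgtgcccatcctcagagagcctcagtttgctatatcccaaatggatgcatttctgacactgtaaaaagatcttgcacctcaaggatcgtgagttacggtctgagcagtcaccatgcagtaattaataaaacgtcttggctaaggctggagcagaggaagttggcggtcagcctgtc
Ptgs2, chr1:150099781-150100030, plus strand: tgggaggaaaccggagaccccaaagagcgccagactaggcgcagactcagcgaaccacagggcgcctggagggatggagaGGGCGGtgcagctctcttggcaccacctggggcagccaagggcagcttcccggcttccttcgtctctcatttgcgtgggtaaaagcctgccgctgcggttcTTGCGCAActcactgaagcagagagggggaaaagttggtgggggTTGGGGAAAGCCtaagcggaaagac
Hpgd, chr8:56294302-56294551, plus strand: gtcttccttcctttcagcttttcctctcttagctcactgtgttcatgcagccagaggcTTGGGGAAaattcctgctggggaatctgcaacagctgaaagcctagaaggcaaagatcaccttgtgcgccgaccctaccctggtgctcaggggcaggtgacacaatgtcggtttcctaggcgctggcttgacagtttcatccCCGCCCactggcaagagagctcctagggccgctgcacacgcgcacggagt
The Ptgs2 window held 2 C/EBP matches, 1 NF-κB match and 1 Sp1 match, and the second C/EBP match overlapped the NF-κB match, which lay 23 to 14 bases before the start. The Hpgd window held 1 C/EBP match and 1 Sp1 match, and in the Ptgs1 window 0 of the 6 motifs were found. Such matches are common: of 32841 windows of the same length, 36.9% held the C/EBP motif, 45.8% the NF-κB motif, 32.7% the Sp1 motif, 17.8% the cyclic AMP element core, 12.4% the TATA box and 6.02% the E box. The share of G and C was 48.0% for Ptgs1, 61.6% for Ptgs2 and 56.8% for Hpgd, beside a median of 52.4% over all windows. The Ltc4s window also held 0 of the 6 motifs, and the windows of Ptges, Ptger4 and Alox5 held NF-κB matches. The windows follow the RefSeq start, and another start would shift them. A motif not found here may lie outside the window, so its absence from a promoter is not shown. A match describes letters and is not a binding site.

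Of the terminal synthases, Ptges gave no difference of 2-fold and Hpgds was not measured. Ptges, which converts the cyclooxygenase product to prostaglandin E2, had a signal of 15341 ± 1534 in WT and 14892 ± 1489 in the other pool. The difference was 0.13 ± 0.20, less than its error. Its dimmer probe had 49.7 ± 5.22 and 35.4 ± 4.01, a difference of -0.32 ± 0.22, of opposite sign and also below 2-fold. Both probes are assigned to the same transcript, yet their signals lie far apart on both arrays. Which of them reads Ptges better is not known here, so the bright signal does not settle how abundant the transcript is. The Ptges difference was -0.04 without scaling and 0.37 both in the authors' values and with quantile normalization, so the sign of this small difference is not settled. Hpgds, the synthase that makes prostaglandin D2, had 1.64 in WT and 2.11 in the other pool, both not well above background and close to their errors of 1.64 and 1.91, so no fold is given. Mast cells are a known source of Hpgds and Ltc4s. Of 16 markers of mast cells, basophils and eosinophils, 11 were measured, with summed unscaled signals of 3270 and 3057, mostly from Mcpt4 (2207 and 2163). Of the 11, 8 lay below 0 and 2 above. Hdc was the 1 lower by 2-fold or more (-1.07, at a bound) and 0 were higher, beside 5.41% and 3.12% of all measured genes. Ms4a2, Kit, Prg2 and Epx were not well above background on either array.

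Hpgd, which encodes the dehydrogenase that inactivates prostaglandins, was lower in the pool labelled SIRPα-KO. Its brighter probe had 805 ± 80.5 in WT and 334 ± 33.5 in the other pool, a difference of -1.10 ± 0.20, or 2.14-fold lower. The dimmer probe had 11.4 ± 2.17 in WT and 8.81 ± 2.3 in the other pool, where it was not well above background. At that probe the difference was -0.20 ± 0.47, less than its error, and -0.16 at its bound, so its sign is not settled. The dimmer probe lies near the limit of detection on both arrays, and its bound does not reach 2-fold. Probe agreement was counted over 241 genes, without Hpgd, whose dimmer probe was well above background in WT only. These genes passed 2-fold at the brightest probe and had another probe well above background on both arrays. At their other probe 22 (9.13%) also passed in the same direction, and 143 (59.3%) kept the sign of the difference. Ptgs1 and Ptgs2 have 1 probe each, so their 2-fold calls could not be checked in this way. Of the 1000 genes nearest to Hpgd in mean signal, 9.8% were at least as far lower, and the median difference of these genes was -0.24. The difference was close to the 2-fold limit, and was -0.89 after quantile normalization, -0.98 after cyclic loess and -0.89 in the authors' values, each below 2-fold. Summed marker signals of several other cell types were lower in the same pool. Stromal and endothelial markers, of which 8 of 10 were measured and Cdh5 and Pdgfrb were not well above background, summed to 14796 in WT and 4688, mostly from Ccl19 (12915 and 3245). All 10 T cell markers summed to 36742 and 16860, mostly from Cd8b1 (27895 and 10283), while Cd8a had 22.3 and 20.1 (0.02 ± 0.28). Of these 10, 6 lay below 0 and 4 above. All 10 conventional dendritic cell markers summed to 1583 and 786, mostly from Flt3 (1217 and 516). Per list, the markers lower by 2-fold or more were 2, 1 and 1, beside 5.41% of all measured genes. The dendritic cell list also held 1 higher, Clec10a (at least 1.22 on the log2 scale), beside 3.12%. The list medians were -0.11, -0.04 and -0.19, so the sums follow a few bright probes and not most markers. The part of these cells in the Hpgd or Ptgs2 difference was not tested.

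Synthesis and breakdown were set side by side within the arrays. The difference of Ptgs1 exceeded that of Hpgd by 2.40 ± 0.30. The excess was 1.45 to 2.26 under the 7 other ways of processing that moved it, and the lowest rests on a bound at the dimmer Hpgd probe. The difference of Ptges exceeded that of Hpgd by 1.23 ± 0.29 with the brighter probes. The dimmest measured probes give only a bound of -0.16, since that of Hpgd was not well above background in the pool labelled SIRPα-KO. They do not settle the order. Of the 4 prostaglandin synthesis genes, 3 were measured, with differences from -1.11 (Ptgs2, at its bound) to 1.30 (Ptgs1) and a median of 0.13. The 3 leukotriene synthesis genes had a median of -0.33.

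The prostaglandin E receptors gave little signal. Ptger2, a receptor that raises cyclic AMP, had 5.30 ± 1.68 in WT and 4.52 ± 1.91 in the other pool, and Ptger4, which also couples to cyclic AMP, had 1.70 ± 1.69 and 2.01 ± 2.01. The lowest signals well above background were 7.92 and 9.09, so both receptors lay below the range in which these arrays order values, and no fold is given. A transcript at this level is not shown to be absent. The other receptors for prostaglandin E2 were named after their values were seen. Ptger3 had 14.1 in WT and 5.69 in the other pool, where it was not well above background, and was at least 1.38-fold lower. The only Ptger1 spot was flagged as non-uniform in WT and was left out. Its processed signal of 5057 there stood against a median pixel brightness of 152, while the unflagged spot on the other array had 56.6 with a median pixel brightness of 92.0. No difference is reported for it.

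The leukotriene genes were each somewhat lower in the pool labelled SIRPα-KO, and 0 of 3 reached 2-fold. Alox5, the lipoxygenase that starts leukotriene synthesis, had 84.5 ± 8.62 in WT and 43.3 ± 4.74 in the other pool, a difference of -0.79 ± 0.22 (1.73-fold lower). Of the 1000 genes of most similar signal, 5.8% were at least as far lower. Alox5ap, which presents arachidonic acid to Alox5, had 159 ± 16.0 and 112 ± 11.4, a difference of -0.33 ± 0.21. Ltc4s, which joins glutathione to the leukotriene, had 224 ± 22.4 and 169 ± 17.0, a difference of -0.23 ± 0.21. As large a drop was seen in 25.1% and 36.6% of the 1000 genes nearest in signal to Alox5ap and Ltc4s, so these differences are of the size that many genes showed. Alox5 was lower than Ltc4s by a further 0.56 ± 0.30 and than Alox5ap by 0.46 ± 0.30, and both stayed below 0 under the 5 other ways of processing that could move them. Neutrophils and monocytes are known sources of Alox5 and Alox5ap, and the gate for little CD11b selects against those with much of it. The signal of the CD11b gene Itgam, given below, was not low on either array and does not bear out the gate. Brightness of a probe is not an amount of surface protein. Of 12 neutrophil markers 9 were measured, with a median of -0.05; S100a8 differed by -1.23 ± 0.22, and Ngp and Mpo were not well above background on either array. Of 10 monocyte markers 8 were measured, with a median of -0.32, and Ccr2 was not well above background. Summed unscaled signals were 45990 and 39484 for the neutrophil markers, nearly all from the Elane probe (45722 and 39299), and 35103 and 31850 for the monocyte markers. Of the latter, Itgam, which encodes the CD11b antigen, had 11027 and 16619, and without it the monocyte markers summed to 24076 and 15231. Both monocyte sums came mostly from a few bright markers, so neither counts cells. Of the 8 measured monocyte markers, 6 lay below 0 and 2 above, with Itgam among those above. The part of these cells in the Alox5 difference was not tested, and fewer cells of a type cannot be told apart from less RNA per cell in such pools.

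**Figure D3:**
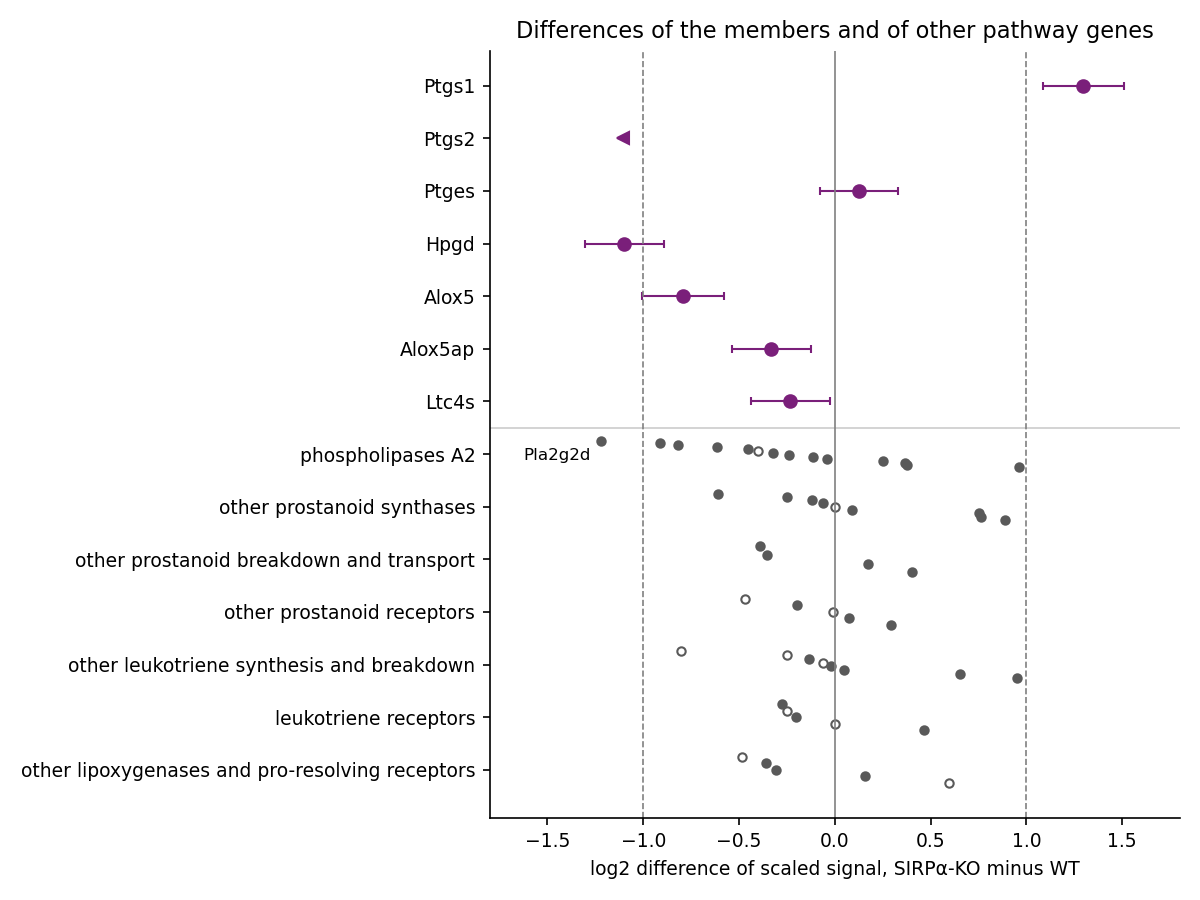
Log2 difference of scaled signal, array labelled SIRPα-KO minus WT, for the 7 measured genes (purple, with the software's error; the triangle at Ptgs2 marks a bound) and for 50 other genes of the pathways by class (grey; open points rest on a bound). Dashed lines mark 2-fold. Ptgs1 lies beyond the line on the right, Ptgs2 and Hpgd beyond that on the left, and of the other genes only Pla2g2d lies beyond a line.

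The rest of the pathways was read from a list of 62 genes. Of these, 50 were measured, 1 was at least 2-fold lower and 0 were at least 2-fold higher, beside 5.41% lower and 3.12% higher of all measured genes; the list median was -0.09. With quantile normalization, 2 of the 50 were at least 2-fold higher. The lower one was Pla2g2d, a secreted phospholipase A2 of lymphoid tissue, with 216 in WT and 82.4 in the other pool (-1.22 ± 0.21). Its dimmer probe differed by 0.36 in the opposite direction, so the probes of Pla2g2d disagree.

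Of 17 genes of the phospholipase A2 list, 14 were measured and 10 (71.4%) lay below 0, beside 56.7% of all measured genes, with a median of -0.28. Plaat3, the one with the brightest probe, had 3683 and 4247 (0.38 ± 0.20). Pla2g4a, the cytosolic enzyme that releases arachidonic acid for both branches, was named after its values were seen and had 201 and 117 (-0.62 ± 0.21). Pla2g4c, a relative of it also named after its values were seen, had 14.5 and 25.2 (0.96 ± 0.29) and passed 2-fold with quantile normalization, cyclic loess and the percentile over probes on both arrays. All 9 other prostanoid synthases were measured, from -0.61 to 0.89; Cbr1, a carbonyl reductase, had the brightest probe, with 8281 and 6183 (-0.25 ± 0.20). Of 5 genes of prostanoid breakdown and transport, 4 were measured, and Slco2a1, the prostaglandin uptake carrier, had 109 and 73.9 (-0.39 ± 0.21). Of 8 other prostanoid receptors, 5 were measured, and the thromboxane receptor Tbxa2r had 112 and 86.8 (-0.20 ± 0.21).

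On the leukotriene side, 8 of 9 other genes of synthesis and breakdown were measured. Cyp4f18, which oxidises leukotriene B4, had 1709 and 1500 (-0.02 ± 0.20). Lta4h, the hydrolase that makes leukotriene B4 from the same intermediate that Ltc4s uses, was named after its values were seen. It had 180 in WT and 309 in the other pool, a difference of 0.95 ± 0.20 (1.93-fold higher), opposite in sign to Alox5, Alox5ap and Ltc4s. It lay just below the 2-fold limit here and passed it with quantile normalization, cyclic loess, the percentile over probes on both arrays and the authors' values. All 5 leukotriene receptors were measured, from -0.28 to 0.46, and Cysltr1, a receptor for the leukotrienes made by Ltc4s, had 86.3 and 106 (0.46 ± 0.21). Of 9 other lipoxygenases and receptors for pro-resolving lipids, 5 were measured, and Alox12b, a lipoxygenase of skin, had 550 and 395 (-0.31 ± 0.20), with a further probe at 0.12.

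**Figure D4:**
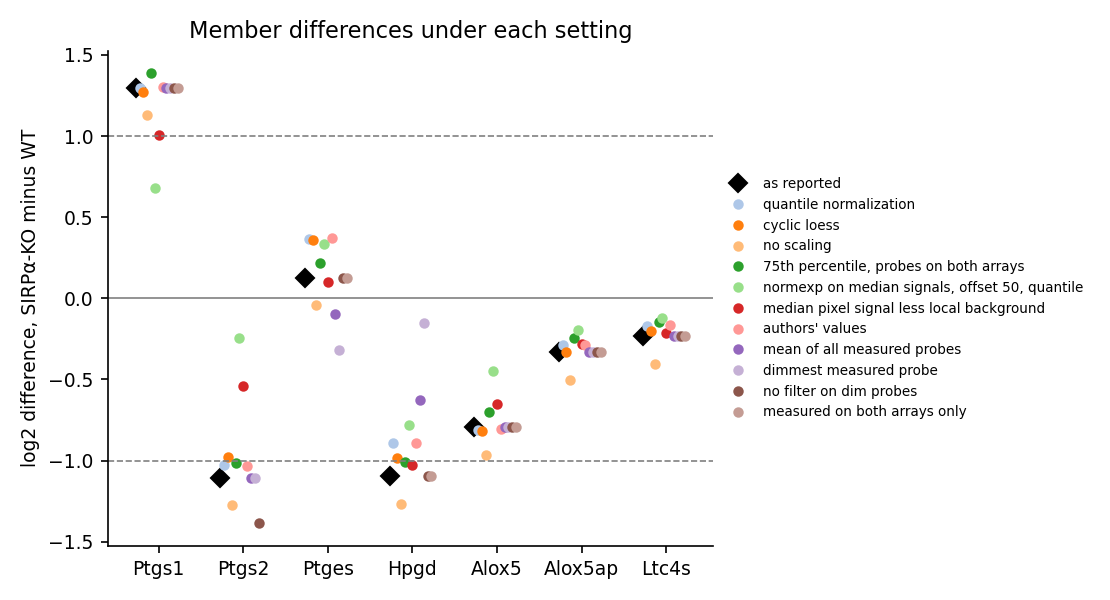
Log2 difference (array labelled SIRPα-KO minus WT) of the 7 measured genes as reported (black diamonds) and under each other way of processing (coloured circles); dashed lines mark 2-fold. Ptgs1 lies above 0 and Ptgs2, Hpgd, Alox5, Alox5ap and Ltc4s below 0 under every setting that gave them a value, while Ptges lies on both sides of 0. The Hpgd value nearest 0 is a bound at its dimmest probe, where the sign is not settled.

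The settings changed which genes passed the 2-fold rule more often than the sign of their differences. All settings reprocess the same 2 arrays, and Ptgs1, Ptgs2, Alox5, Alox5ap and Ltc4s were read at the same probe throughout. A sign kept across settings is thus no check across mice, pools or probes. At the dimmest probe the sign turned for Ptges (-0.32). For Hpgd it is not settled there, since the bound of -0.16 is smaller than the error of 0.47. Settings that leave a gene at its reported value by construction, such as another choice of probe for a gene with 1 probe, are not counted. Ptgs1 passed in 6 of the 7 others, with differences from 0.68 to 1.39. Ptgs2 passed in 5 of 8, with -1.39 to -0.24, and Hpgd in 3 of 9, with -1.27 to -0.16. Alox5 ranged from -0.96 to -0.45 and passed in 0 of 7. Alox5ap ranged from -0.50 to -0.19 and Ltc4s from -0.40 to -0.12.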

How the data were processed

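Sorted red pulp macrophages of 1 WT pool and 1 pool labelled SIRPα-KO, each of 5 mice, were read on 1 array each. Per the file headers, the deposited scanner output is linear intensity per spot, corrected for background by Feature Extraction 11.0.1.1 (array design 26655, build mm9). The authors' deposited table holds log2 values whose columns share their quartiles; how they were normalized is not stated in the labels used, and they served as an alternative.

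Control spots were dropped, as were outlier-flagged ones (190 and 167 of 43020), repeat spots of a probe were averaged as log2, and each array was scaled to its 75th percentile. Of 39386 probes, 71.5% and 65.3% were well above background, and 0 spots were saturated; the number of arrays limits the precision. Probes were named by RefSeq accession (GRCm38.p6, 27206 matched; Pla2g16 is Plaat3 there). A gene was read at its brightest probe. Where 1 array was not well above background, the lowest signal well above background there (or the own signal, if higher) gave a bound, in places written "at least". Such a bound is not a strict floor. On the array labelled SIRPα-KO that lowest signal was 9.09, yet Abcc1 at 10.2 was not well above background.

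The genes and lists were chosen with earlier results of these data known. All 10 genes were named; of the 62 other pathway genes, those at least 2-fold apart and the brightest of each class. Pla2g4a, Pla2g4c, Lta4h, Ptger1 and Ptger3 lie outside this rule and were chosen after their values were seen. Of 18 markers for macrophages and 8 further lists for other cells, those beside a result are given. The median difference was -0.19 (conventional dendritic cells), 0.21 (B cells), -0.04 (T cells) and -0.11 (stromal and endothelial cells). For the macrophage list it was 0.06 and for mast cells, basophils and eosinophils -0.06. The value of 1 monocyte marker is not reported here. The steps were tested on simulated data. Alternatives used limma 3.58.1 in R 4.3.3.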

Additional observations from a re-analysis of the deposited data

How the results depend on the processing

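No paired analysis was possible because each genotype has 1 array. Normexp on mean signals was not run; normexp on median signals and median pixel brightness were added after seeing the data. The 2 members at least 2-fold lower were 1 after quantile normalization, with median pixel brightness, in the authors' values, with the mean of all probes, with the dimmest probe and with genes measured on both arrays, and 0 after cyclic loess, after normexp and at 3-fold. The 1 member higher was 0 after normexp and at 3-fold. Of the other pathway genes, the 1 lower became 2 without scaling, 7 with no filter on dim probes and 6 at 1.5-fold, and 0 after normexp, with the mean of all probes, with the dimmest probe and at 3-fold. The 0 higher became 2 after quantile normalization, after cyclic loess, with the percentile over probes well above background on both arrays and with no filter, 1 in the authors' values and 7 at 1.5-fold. Pla2g2d turned to 0.36 at its dimmest probe.

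Over all genes, the 856 lower became 462 after normexp, 1638 without the filter, 369 at 3-fold and 2081 at 1.5-fold. The 494 higher became 304 without scaling, 183 after normexp, 194 with median pixel brightness, 881 without the filter, 103 at 3-fold and 1810 at 1.5-fold. Higher genes were 36.6% of those called, but 47.1% both in the authors' values and with quantile normalization, 45.4% after cyclic loess, 46.1% with the percentile over probes on both arrays and 20.8% without scaling, which also moved the all-gene median from -0.08 to -0.25. The fold limits and the filter change counts by construction, and the normexp offset of 50 shrinks differences of dim genes; the cause of the other changes was not tested. The median of the members stayed between -0.50 and -0.15.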
